A study of Homo sapiens with 4 samples.

Results

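Selenoproteins are proteins that carry selenocysteine, an amino acid with selenium in the place of the sulfur of cysteine. The genes described here are 10 genes of this system, chosen by name from a list written for this work, and all 10 were found by their Ensembl identifiers among the 57905 genes counted. They are *SELENOP*, *SELENOM*, *SELENOS*, *SELENOK*, *SELENOW*, *SELENOF*, *SELENOH* and *MSRB1*, which encode selenoproteins, *SEPHS2*, which is both a selenoprotein and an enzyme of selenocysteine synthesis, and *SEPSECS*, an enzyme of that synthesis. Thioredoxin reductases and the glutathione peroxidases GPX1 and GPX4 were left out by the same rule. RNA was sequenced from U87MG, an established human glioblastoma cell line labelled as wild type, in 2 groups of 2 samples. Control cells were left untreated, and the other cells received 50 nM chaetocin, dissolved in DMSO, for 24 h. Chaetocin is a fungal metabolite known as an inhibitor of histone methyltransferases. Since control cells received no vehicle, effects of chaetocin and of DMSO cannot be told apart. The sources used here do not say whether the 2 samples of a group came from separate cultures, so p-values measure the spread between these samples, which may be technical, and a single cell line was used.

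Selenocysteine is made on its own transfer RNA. Seryl-tRNA is phosphorylated and then converted to selenocysteyl-tRNA by SEPSECS, which uses selenophosphate made by SEPHS2. The ribosome inserts the amino acid at an in-frame UGA codon, which otherwise ends translation, when a stem-loop in the 3′ untranslated region of the mRNA recruits SECISBP2 and the elongation factor EEFSEC. When selenium is scarce the UGA can be read as a stop, and an mRNA with such a stop well before its last exon junction can be degraded by nonsense-mediated decay.

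The UGA codon and the codons around it are what sets these mRNAs apart, so the coding sequence around the first in-frame UGA is shown for the 9 genes that have one. The sequences are those of GENCODE release 29 transcripts (GRCh38), 5′ to 3′ on the coding strand, with 18 bases on each side or up to the stop codon. Capitals mark the selenocysteine codon, written TGA in DNA letters, and any cysteine codon within 3 codons of it.
SELENOP: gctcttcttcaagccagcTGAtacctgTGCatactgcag
SELENOM: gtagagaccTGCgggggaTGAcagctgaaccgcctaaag
SELENOW: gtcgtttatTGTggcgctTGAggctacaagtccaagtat
SELENOH: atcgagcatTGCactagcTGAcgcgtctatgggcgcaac
SELENOF: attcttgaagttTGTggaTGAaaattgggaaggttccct
SELENOS: ggcccgtcatctggcggaTGAggctaa
SELENOK: cctccaatggctggtggaTGAggaaggtaa
MSRB1: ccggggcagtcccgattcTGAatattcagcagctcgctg
SEPHS2: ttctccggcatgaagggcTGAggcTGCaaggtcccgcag

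In *SELENOM*, *SELENOW* and *SELENOH* a cysteine codon stood 3 codons before the UGA, in *SELENOF* it stood 2 codons before, and in *SELENOP* and *SEPHS2* it followed, by 3 and by 2 codons. A cysteine so placed can be the partner of selenocysteine in a redox-active pair, which was not examined here for any of these genes. No cysteine codon lay that close in *SELENOS*, *SELENOK* and *MSRB1*. All codons are in exons on GRCh38. The UGA of *SELENOM* lies at chr22:31105951-31105953 (minus strand) in exon 4 of 7, and it is codon 48 of 145. That of *SELENOW* lies at chr19:47780732-47780734 (plus strand) in exon 2 of 6, as codon 13 of 87. In *SELENOH* it lies at chr11:57741816-57741818 (plus strand) in exon 2 of 3, as codon 44 of 122. These are small proteins with a thioredoxin-like fold, and their selenocysteine lies before the middle of the chain. The UGA of *SELENOF* is codon 96 of 165, at chr1:86880690-86880692 (minus strand) in exon 3 of 5. In the membrane proteins SELENOS and SELENOK the selenocysteine is almost the last residue. It is codon 188 of 189 in *SELENOS* (chr15:101272777-101272779, minus strand, exon 6 of 7) and codon 92 of 94 in *SELENOK* (chr3:53885831-53885833, minus strand, exon 4 of 5). *MSRB1* has it at codon 95 of 116 (chr16:1940812-1940814, minus strand, exon 3 of 4). *SEPHS2*, which has a single exon, has it at codon 60 of 448 (chr16:30445548-30445550, minus strand).

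*SELENOP* differs from the others in having 10 in-frame UGA codons among 381. The first is codon 59 (chr5:42808177-42808179, minus strand, exon 2 of 5). The second to the tenth all lie in exon 5, from codon 300 to codon 378, in the stretch that makes the protein a carrier of selenium. That stretch of 237 bases is shown with the UGA codons in capitals.
SELENOP: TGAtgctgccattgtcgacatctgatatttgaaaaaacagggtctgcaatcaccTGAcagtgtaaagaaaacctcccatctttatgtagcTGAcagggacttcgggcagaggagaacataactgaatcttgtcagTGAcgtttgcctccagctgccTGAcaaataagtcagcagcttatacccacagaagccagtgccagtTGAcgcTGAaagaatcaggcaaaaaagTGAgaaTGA
*SEPSECS*, an enzyme without selenocysteine, has 0 in-frame UGA codons before its stop among 501 codons.

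**Figure D1:**
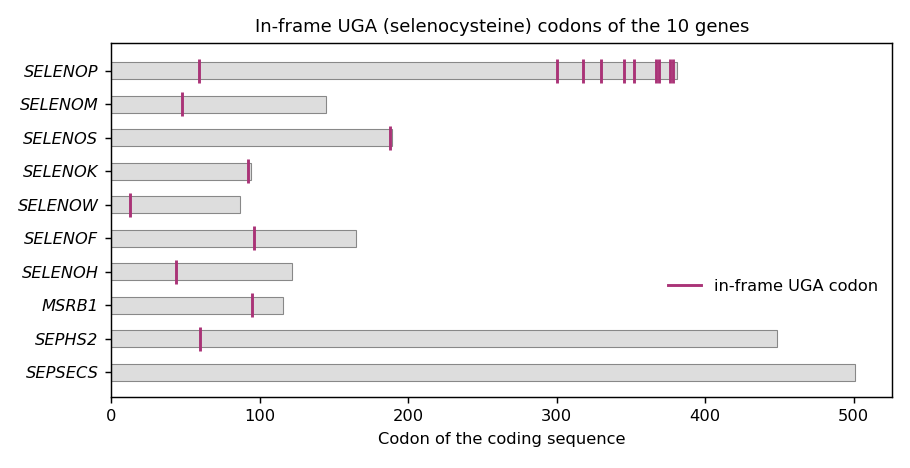
Coding sequence of each of the 10 genes as a grey bar, to scale in codons, with in-frame UGA codons as coloured lines. *SELENOP* has 10, *SEPSECS* has none, and the other 8 genes have 1 each, near the end in *SELENOS* and *SELENOK*.

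None of the 10 genes passed the test between chaetocin and control. All 10 passed the filter on low counts. By the quasi-likelihood test of edgeR, with p-values adjusted by Benjamini-Hochberg over the 16416 genes tested, 0 of 10 had an adjusted p under 0.05, against 1.85% of all genes tested (1.11% higher and 0.743% lower with chaetocin). At an unadjusted p under 0.05 the count was also 0, against 20.3% of all genes, and DESeq2's Wald test called 0 of 10, against 5.53%. Over the 10 genes the median log2 fold change of chaetocin against control (log2FC) was -0.03, with 4 above 0 and 6 below. Over all genes tested the median was 0.01, with 8357 above 0. The median of the 10 genes moved with single samples left out. It was -0.16 without chaetocin 1, 0.11 without chaetocin 2, 0.05 without control 1 and -0.06 without control 2. The chaetocin and control samples did not overlap for 5 of the 10 genes, 3 with chaetocin higher and 2 with chaetocin lower, and the share of all genes whose groups did not overlap was 52.7% (26.8% higher and 26.0% lower). As a check that the treated cells differed, *HMOX1*, which encodes heme oxygenase 1, was at 127 and 172 CPM (the count relative to the library total, corrected with TMM factors) in control samples and at 1198 and 1276 CPM with chaetocin, with a log2FC of 3.05 ± 0.22 (SE; edgeR adjusted p = 0.00358).

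The libraries held between 21241984 and 32590479 counts, so 3 counts corresponded to between 0.0843 and 0.138 CPM, a limit that covers counting error only, because PCR copies of one molecule are counted separately. Replicates of both groups differed by more than sampling noise. Of 9 glioma and astroglial marker genes, 6 were detected in every sample (*VIM*, *CD44*, *NES*, *GFAP*, *OLIG2* and *ALDH1L1*), *AQP4* had no count in any sample, and *S100B* and *SOX2* had none in either control sample. Their summed level was 5493 and 4790 CPM in control and 3220 and 1971 CPM with chaetocin, mostly from *VIM* and *CD44*, and 0 of the 6 tested passed the test. For 5 of the 6 both chaetocin samples were below both control samples, against 26.0% of all genes tested, and the median log2FC of the 6 was -0.72, with *CD44* at -1.20 (edgeR adjusted p = 0.0699) and *VIM* at -0.80. *ALDH1L1* had the largest absolute log2FC and went the other way, with 5 and 16 counts in control and 22 and 37 with chaetocin (log2FC 1.39, edgeR adjusted p = 0.217). Of 7 blood cell markers, *CD3E* and *HBB* had no count, and the summed level was 0.287 and 0.452 CPM in control and 2.25 and 2.92 CPM with chaetocin. *PTPRC* had 0 and 1 counts in control and 15 and 27 with chaetocin, and *ITGAM* 0 and 1 against 24 and 29. Both passed the filter on low counts through the chaetocin samples alone, so their calls (edgeR adjusted p of 0.0412 and 0.0341) follow in part from the filter. Of 3 endothelial markers, *PECAM1* was not matched and *VWF* and *CDH5* summed to 0.86 and 1.29 CPM in control and to 2.11 and 3.15 CPM with chaetocin. The part of these levels in the values of the 10 genes was not tested, and in bulk RNA fewer cells of a type and less RNA per cell cannot be told apart.

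*SELENOP* encodes selenoprotein P, which is secreted and carries selenium between cells. It had 103 and 113 counts in control samples and 66 and 108 counts in chaetocin samples, that is 4.22 and 3.93 CPM against 3.03 and 3.04 CPM. Both chaetocin samples lay below both control samples, but the difference did not pass the test. The log2FC was -0.42 ± 0.26 (SE; edgeR adjusted p = 0.404), and the ratio of chaetocin to control was 0.746 with a 95% interval from 0.492 to 1.13. On GRCh38, 64.7% of its transcript overlaps exons of *CCDC152* on the opposite strand. The strand setting of the counting is not given in the sources used here, and without strand the reads of both genes cannot be told apart. *CCDC152* itself had 213 and 314 counts in control samples and 174 and 365 with chaetocin.

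Of the selenoproteins of the endoplasmic reticulum, *SELENOS* and *SELENOK* encode membrane proteins that take part in moving misfolded proteins out to the cytosol. *SELENOS* was at 58.8 and 54.6 CPM in control samples and at 66.1 and 60.1 CPM with chaetocin. The groups did not overlap, by a margin smaller than the spread within either group. Its log2FC was 0.15 ± 0.15 (SE; edgeR adjusted p = 0.598). With single samples left out it ran from 0.087 without chaetocin 1 to 0.215 without chaetocin 2. *SELENOK* was at 29.2 and 29.9 CPM in control samples and at 32.2 and 26.9 CPM with chaetocin, so that the control samples lay between the chaetocin samples. Its ratio of chaetocin to control was 0.998, with a 95% interval from 0.77 to 1.29. Processed pseudogenes of *SELENOK* (*SELENOKP1*, *SELENOKP2* and *SELENOKP3*) and of *SEPHS2* (*SEPHS2P1*) had 0 counts in each sample. Reads shared with near-identical copies may be left uncounted, and the counting tool is not given. These counts therefore do not show whether *SELENOK* and *SEPHS2* lost such reads.

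*SELENOF* encodes a partner of the glycoprotein folding sensor UGGT1 in the lumen of the endoplasmic reticulum. Its level was 93.2 and 81.2 CPM in control samples and 76.0 and 77.0 CPM with chaetocin. Both chaetocin samples were below both control samples, and the control samples differed more from each other than control 2 did from either chaetocin sample. The fitted log2FC was -0.19 ± 0.15 (SE; edgeR adjusted p = 0.508), and the 95% interval of the ratio ran from 0.696 to 1.10. Without control 1 the log2FC was -0.10, and without control 2 it was -0.30. *SELENOM*, a thioredoxin-like protein of the same compartment, was at 43.1 and 35.8 CPM in control samples and at 37.7 and 25.2 CPM with chaetocin. Chaetocin 1 lay between the control samples and chaetocin 2 below both. In the fit the log2FC was -0.33 ± 0.22 (SE; edgeR adjusted p = 0.429), with an interval of the ratio from 0.565 to 1.12.

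*SELENOW* and *SELENOH* encode small thioredoxin-like proteins, of the cytosol and of the nucleus. *SELENOH* was at 37.5 and 51.5 CPM in control samples and at 78.2 and 33.1 CPM with chaetocin. Both control samples lay between the chaetocin samples, which differed 2.36-fold. Its log2FC of 0.32 had the largest standard error of the 10 genes, 0.37 (edgeR adjusted p = 0.681), and the 95% interval of the ratio ran from 0.689 to 2.25. *SELENOW* was at 21.1 and 19.1 CPM in control samples and at 26.1 and 12.8 CPM with chaetocin. Here too the control samples lay between the chaetocin samples, which differed 2.03-fold. The log2FC was -0.05 ± 0.30 (SE; edgeR adjusted p = 0.942), with an interval of the ratio from 0.597 to 1.55. On GRCh38 10.2% of the *SELENOH* transcript overlaps exons of another gene on the same strand, AP001931.1, and reads there may be split or left uncounted. The pseudogene *SELENOWP1* had 1 count in chaetocin 2 and none in the other samples, which does not show whether shared reads were left uncounted.

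*MSRB1* encodes the selenocysteine-containing methionine sulfoxide reductase, which repairs oxidized methionine. It was at 27.9 and 26.4 CPM in control samples and at 33.3 and 33.9 CPM with chaetocin. Replicates were close in both groups and both chaetocin samples were higher, yet the difference did not pass the test. Its log2FC was 0.30 ± 0.15 (SE; edgeR adjusted p = 0.303, the smallest of the 10 genes). The ratio of chaetocin to control was 1.23, with a 95% interval from 0.971 to 1.57. Of the 3 methionine sulfoxide reductase genes whose products lack selenocysteine, *MSRA*, *MSRB2* and *MSRB3*, 0 passed the test. The log2FC furthest from 0 was that of *MSRB2*, 0.29 (edgeR adjusted p = 0.394). It was 0.39 without control 1 and 0.16 without control 2.

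Of the synthesis enzymes, *SEPHS2* makes the selenium donor and was the most abundant of the 10 genes in CPM. Its level was 116 and 108 CPM in control samples and 122 and 130 CPM with chaetocin. Both chaetocin samples were higher, and the gap between the nearest samples of the groups was smaller than that between the control samples. The fitted log2FC was 0.17 ± 0.14 (SE; edgeR adjusted p = 0.552), with an interval of the ratio from 0.897 to 1.40. With single samples left out the log2FC ran from 0.105 without control 2 to 0.213 without chaetocin 1. *SEPSECS*, which completes selenocysteine on its transfer RNA, was at 10.8 and 8.04 CPM in control samples and at 7.67 and 9.77 CPM with chaetocin. The groups overlapped. In the fit the log2FC was -0.10 ± 0.24 (SE; edgeR adjusted p = 0.853), with an interval of the ratio from 0.636 to 1.36.

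**Figure D2:**
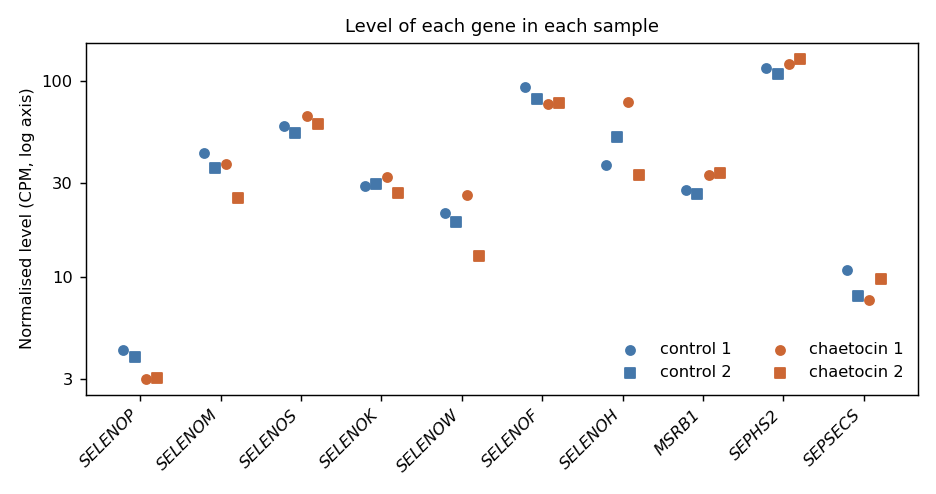
Level of each of the 10 genes in CPM (log axis) in each sample, circles for replicate 1 and squares for replicate 2 of control (blue) and chaetocin (orange). The chaetocin samples of *SELENOH* and *SELENOW* lie on either side of both control samples, at 78.2 and 33.1 CPM and at 26.1 and 12.8 CPM.

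**Figure D3:**
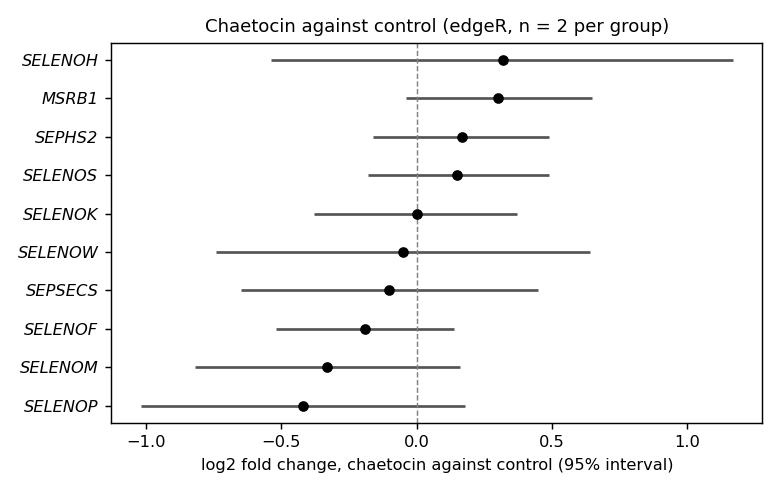
log2FC of chaetocin against control for each gene (points) with its 95% interval (lines) from edgeR's quasi-likelihood fit, n = 2 samples per group. Every interval includes 0, from *SELENOP* at -0.42 to *SELENOH* at 0.32, and that of *SELENOH* is the widest.

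Across the 10 genes the lower bounds of the ratio lay between 0.492 (*SELENOP*) and 0.971 (*MSRB1*) and the upper bounds between 1.10 (*SELENOF*) and 2.25 (*SELENOH*).

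Per kilobase of the transcript used for each gene, the order of the mean control levels was *SELENOH* (53.4 CPM per kb), *SELENOF* (49.0), *SEPHS2* (44.0), *SELENOS* (39.4), *SELENOM* (37.4), *SELENOW* (22.6), *MSRB1* (19.1), *SELENOK* (18.1), *SELENOP* (1.82) and *SEPSECS* (1.71). Between the control samples, *SELENOH* overlapped with *SELENOF* and *SEPHS2*, *SELENOS* with *SELENOM*, and *SELENOP* with *SEPSECS*, so the order of these genes did not hold beyond their spread. With chaetocin the mean levels ran from 66.8 CPM per kb for *SELENOH* down to 1.35 for *SELENOP*, and the *SELENOH* samples were at 93.9 and 39.7. The mRNAs of the secreted carrier and of *SEPSECS* were at means of at most 1.82 CPM per kb in both groups, and the other 8 at 18.1 or more.

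The genes that varied most between the chaetocin samples were those with the shortest transcripts. *SELENOH* (833 nt), *SELENOW* (888 nt) and *SELENOM* (1054 nt) had log2 ratios of chaetocin 2 to chaetocin 1 of -1.24, -1.02 and -0.58. For the other 7 genes, of 1423 nt or more, this ratio lay between -0.26 and 0.35. Short transcripts in general were lower in chaetocin 2. Among 499 genes of at most 1100 nt with a mean of at least 10 CPM the median log2 ratio was -0.34 and 82% were lower in chaetocin 2, against a median of 0.15 among 2545 genes over 5000 nt. The length limit of 1100 nt was chosen after these values were seen. Between the control samples the medians were -0.06 and 0.07, and the log2 ratio of control 2 to control 1 was 0.46 for *SELENOH*, -0.14 for *SELENOW* and -0.27 for *SELENOM*. Of the 499 short genes, 1.6% had a ratio as low as that of *SELENOH*, 4.61% as low as that of *SELENOW* and 26.7% as low as that of *SELENOM*. By GC content the medians of chaetocin 2 to chaetocin 1 ran from 0.09 at 40% GC or less to -0.16 above 60% GC. *SELENOM* has 63% GC, *SELENOW* 58.6% and *SELENOH* 54.7%, and the part of GC content in their ratios was not tested.

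When the trend with transcript length was removed from each sample, an alternative chosen after seeing the data, the log2 ratio of chaetocin 2 to chaetocin 1 became -0.88 for *SELENOH*, -0.67 for *SELENOW* and -0.29 for *SELENOM*. The log2FC values of these 3 genes were then 0.31, -0.05 and -0.32, with adjusted p-values of 0.608, 0.927 and 0.301 from edgeR, and 0 of the 10 genes passed the test. The direction of *SELENOH* and *SELENOW* turned with the chaetocin library that was left out, and without control 1 *SELENOW* was at 0.01. Without chaetocin 1 the log2FC values were -0.43 for *SELENOH*, -0.64 for *SELENOW* (edgeR adjusted p = 0.0225) and -0.65 for *SELENOM* (edgeR adjusted p = 0.0136). Without chaetocin 2 they were 0.80 for *SELENOH* (edgeR adjusted p = 0.0199), 0.37 for *SELENOW* and -0.07 for *SELENOM*. In these fits the lone chaetocin sample is assumed to vary like the control samples, so these calls do not take in the difference between the chaetocin samples. Many more genes were called in these fits. The 2 of 10 genes called without chaetocin 1, both lower, stand beside 17.0% of all genes called (9.48% lower), and the 1 of 10 called without chaetocin 2, higher, beside 9.82% (4.23% higher).

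**Figure D4:**
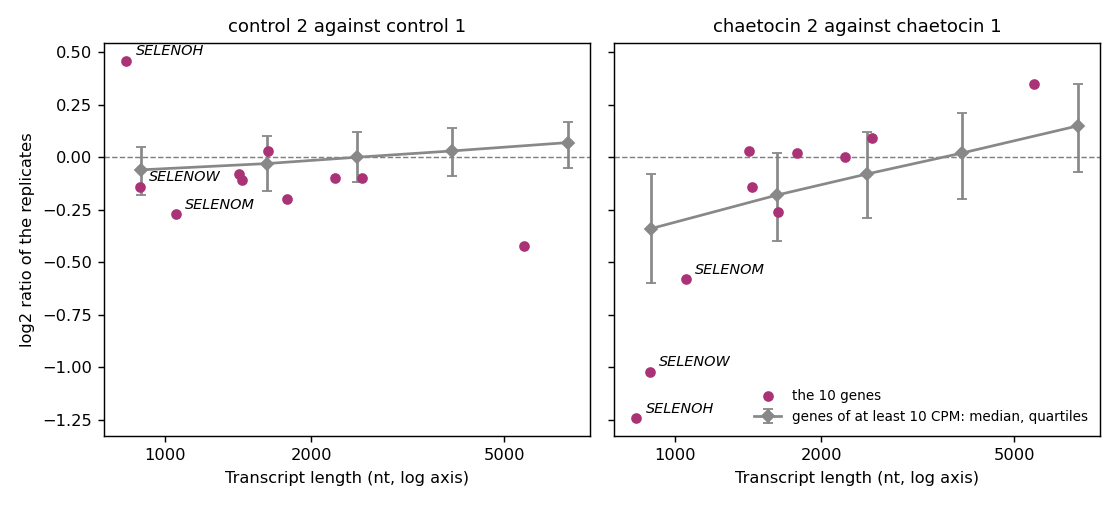
log2 ratio of replicate 2 to replicate 1 against transcript length (nt, log axis) in control (left) and chaetocin (right), with the 10 genes as coloured points and, in grey, medians and quartiles of genes of at least 10 CPM in 5 length classes. In chaetocin the medians run from -0.34 for the shortest to 0.15 for the longest class, and *SELENOH*, *SELENOW* and *SELENOM* lie at -1.24, -1.02 and -0.58.

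The genes were also set side by side by the place of their UGA codon, a grouping made with the fold changes known and so without a test. In *SELENOP*, *SELENOM*, *SELENOW*, *SELENOF* and *SELENOH* the first UGA lies more than 50 nt before the last exon junction, at distances from 78 to 357 nt. The log2FC values of these 5 genes had a median of -0.19 and ran from -0.42 to 0.32, with 4 below 0. Over all genes tested, 8059 of 16416 were below 0. With single samples left out, *SELENOH* ranged from -0.43 to 0.80, *SELENOW* from -0.64 to 0.37 and *SELENOM* from -0.65 to -0.07. The median and the count below 0 of these 5 genes therefore depend on single samples. In *SELENOS*, *SELENOK* and *MSRB1* the UGA lies within 50 nt of the last junction, at 13, 5 and 34 nt. Their log2FC values had a median of 0.15 and ran from 0 to 0.30, with 1 below 0 (*SELENOK*, by less than 0.01), and that of *SEPHS2*, which has no exon junction, was 0.17. The ranges of the groups overlap.

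Of the other selenoprotein genes listed, again without the thioredoxin reductases, *GPX1* and *GPX4*, 7 of 11 were tested and 0 passed the test in either direction. *SELENOV*, *GPX6* and *DIO3* had no count in any sample and *GPX2* at most 7. The largest log2FC was that of *GPX3*, which encodes a secreted glutathione peroxidase, with 93 and 51 counts in control samples and 21 and 14 with chaetocin. Both chaetocin samples were lower, at a log2FC of -2.09 ± 0.55 (SE; edgeR adjusted p = 0.0889), and DESeq2's Wald test gave an adjusted p of 0.0169. Single libraries moved this value. The log2FC was -1.45 without control 1 (edgeR adjusted p = 0.316), -2.55 without control 2 (0.00141), -2.80 without chaetocin 1 (0.00643) and -1.53 without chaetocin 2 (0.105). *SELENON*, *SELENOT*, *SELENOI* and *SELENOO* had log2FC values between -0.20 and 0.26. Of the deiodinases, which activate or inactivate thyroid hormone, *DIO2* had one of -0.59 (edgeR adjusted p = 0.284; -0.24 without control 1 and -0.89 without control 2), and *DIO1* had at most 11 counts in a sample. The median of the 7 genes was -0.11, with 3 above 0 and 4 below.

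Of the 11 genes of the synthesis and insertion machinery, all were tested and 0 passed in either direction, and their median log2FC was -0.06, with 5 above 0 and 6 below. The gene furthest from 0 was *EEFSEC*, the elongation factor for selenocysteine, at 3.52 and 2.89 CPM in control samples and 1.88 and 2.25 CPM with chaetocin, a log2FC of -0.62 ± 0.30 (SE; edgeR adjusted p = 0.295). *SCLY*, named after its values were seen, lay almost as far from 0 the other way. It was at 2.13 and 2.68 CPM in control samples and 3.81 and 3.55 CPM with chaetocin. Its log2FC was 0.61 ± 0.29 (SE; edgeR adjusted p = 0.279). *SECISBP2*, which binds the stem-loop, had a log2FC of -0.13. At an unadjusted p under 0.05 there were 2 of the 11 genes, near the 20.3% of all genes tested, named after their values were seen. They were *SEPHS1*, the paralogue of *SEPHS2* without selenocysteine, with a log2FC of 0.44 (edgeR adjusted p = 0.154), and *RPL30*, a ribosomal protein that also binds the stem-loop, with -0.46 (edgeR adjusted p = 0.226). Without chaetocin 1 both were called, *SEPHS1* at 0.46 (edgeR adjusted p = 0.0342) and *RPL30* at -0.75 (edgeR adjusted p = 0.00162), and without chaetocin 2 *RPL30* was at -0.23. Ribosomal protein genes have near-identical processed copies, so the counts of *RPL30* are less certain.

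Of 4 genes listed for receptors of selenoprotein P and for selenium uptake or binding, *LRP8* and *LRP1* were tested and 0 passed. *LRP8*, a receptor for selenoprotein P, was at 108 and 128 CPM in control samples and at 140 and 154 CPM with chaetocin, a log2FC of 0.31 ± 0.15 (SE; edgeR adjusted p = 0.302). The log2FC of *LRP8* was 0.18 without control 1 and 0.43 without control 2. *LRP2* and *SELENBP1* had at most 8 counts in a sample.

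The 10 genes for quality control partners of SELENOS, SELENOK and SELENOF in the endoplasmic reticulum had a median log2FC of -0.16, with 8 below 0. The test was passed by 0 of them in either direction. Chaetocin samples lay below control samples without overlap for 5 of them, against 26.0% of all genes tested, and above for 1. The lowest value was that of *HERPUD1*, a stress-induced component of the retrotranslocation complex, at 120 and 112 CPM in control samples and 79.9 and 49.3 CPM with chaetocin, a log2FC of -0.84 ± 0.22 (SE; edgeR adjusted p = 0.0882). *SEL1L*, the scaffold of that complex, had a log2FC of -0.72 (edgeR adjusted p = 0.0586) and *UGGT1*, the folding sensor that SELENOF binds, one of -0.60 (edgeR adjusted p = 0.0828). Under DESeq2's Wald test the adjusted p-values were 0.0136 for *HERPUD1*, 0.00619 for *SEL1L* and 0.0226 for *UGGT1*. All 3 were also called by edgeR without chaetocin 1 and without chaetocin 2, but not without either control sample, and the log2FC of *HERPUD1* was then -1.23 without chaetocin 1 and -0.54 without chaetocin 2. *ZDHHC6*, the palmitoyltransferase that SELENOK binds, had a log2FC of 0.37 (edgeR adjusted p = 0.202), and was called without chaetocin 2 (edgeR adjusted p = 0.0441). *SEL1L*, *UGGT1* and *ZDHHC6* were named after their values were seen, as the genes of this list besides *HERPUD1* with an unadjusted p under 0.05 (4 of 10 in all, against 20.3% of all genes tested). *VCP* and *DERL1*, the motor and a channel component of the same route, had log2FC values of -0.03 and 0. These 2 genes, like *SECISBP2*, *DIO1*, *DIO2* and the 4 selenoprotein genes given with *GPX3*, were also named with their values seen.

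**Figure D5:**
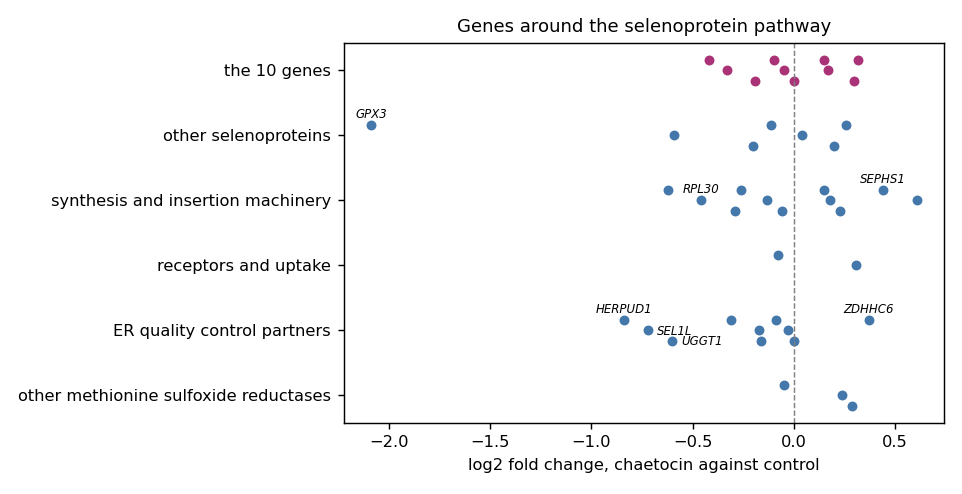
log2FC of chaetocin against control for each tested gene of the 10 genes (top row) and of 5 lists around them, with vertical offsets only to separate points. The 10 genes lie between -0.42 and 0.32, and the lowest points of the lists are *GPX3* at -2.09 and *HERPUD1* at -0.84.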

How the data were processed

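The authors deposited raw counts of reads per Ensembl gene, 1 file per sample, without normalization. The submitters' processing notes name cutadapt, TopHat2, SAMtools and GRCh37, while versions, the counting tool and its strand setting are not given in the sources used here. Polyadenylated RNA was sequenced as single-end reads. Groups and replicate numbers were taken from the sample titles. Symbols were matched for 51996 identifiers. From the counts, edgeR 4.0.16 in R 4.3.3 was run with filterByExpr (minimum count 10), TMM factors and a robust quasi-likelihood fit without block over all genes, with Benjamini-Hochberg adjustment and a threshold of 0.05. Standard errors are the fitted log2 difference over the root of F, and 95% intervals use the moderated degrees of freedom. DESeq2 1.42.0 and 9 other settings were tried, plus 1 added later. The fit was tested on simulated data. Transcripts (the APPRIS principal isoform, the longest where several or none are given) and their lengths came from GENCODE release 29 on GRCh38, another build than that of the counts, and were used only per gene. The 10 genes and the lists were chosen with earlier results of these data known. Named genes were all 10 members and, of each of the 5 pathway lists, every gene called or else the one with the largest absolute log2 fold change, with exceptions named in the text. One marker gene is not reported here.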

Additional observations from a re-analysis of the deposited data

How the results depend on the processing

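With RLE size factors, no filter on low counts, a minimum of 10 counts per sample, DESeq2's Wald test, the replicate block, the trend with transcript length removed (added after seeing the data), an unadjusted p under 0.05 by edgeR, or either control sample left out, 0 of the 10 genes were called. Leaving out each sample in turn gave 0 to 2 calls among them, 2 without chaetocin 1, where 17.0% of all genes were called, and 1 without chaetocin 2, where 9.82% were. The log2 fold change changed sign with all samples kept for *SELENOK* (0.019 with a minimum of 10 counts per sample) and *SEPSECS* (0.008 with the length trend removed). With each sample left out it ranged from -0.14 to 0.12 for *SELENOK*, -0.64 to 0.37 for *SELENOW*, -0.43 to 0.80 for *SELENOH* and -0.31 to 0.11 for *SEPSECS*, and for the other 6 genes it kept its sign in all settings run. Over all genes, the calls were 182 higher and 122 lower. They became 787 and 759 without a filter, 114 and 80 with that minimum, 447 and 461 with DESeq2's Wald test, 1791 and 1548 at an unadjusted p under 0.05, and 215 to 1332 and 97 to 1673 with a sample left out, most without chaetocin 1 (without chaetocin 2, 712 and 940). In the lists around the 10 genes, 0 were called higher and 0 lower. With the filter, the 5 lists held 7, 11, 2, 10 and 3 tested genes. Those called lower became 4 without a filter, where 787 genes were called higher and 759 lower of 31692 tested. With DESeq2's Wald test they became 4, and that test called 5.53% of all genes tested. At an unadjusted p under 0.05, 2 were higher and 5 lower, against 20.3% of all genes tested. Counts in these lists also moved when single samples were left out, as did the counts over all genes. Leaving out samples changes how the spread is estimated, and the cause of the other changes was not tested.

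Samples share the numbers 1 and 2 across groups, but nothing ties same-numbered samples to one batch, and their differences correlated across genes with r = 0.131. With the replicate block, 1036 genes were called higher and 1053 lower, 12.7% of the 16416 tested. That fit leaves fewer residual degrees of freedom than the fit without block, so the spread is estimated from less. In it 0 of the 10 genes were called, and in the lists 1 gene was called higher and 5 lower. Those lower were *GPX3* at an edgeR adjusted p of 0.00064, *HERPUD1* at 0.000152, *SEL1L* at 0.0017, *UGGT1* at 0.0146 and *RPL30* at 0.0342. The gene called higher was *SEPHS1*, at an edgeR adjusted p of 0.0403. Of the 10 genes, *SELENOP* had the fewest counts, from 66 to 113.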
